A study of Bos taurus with 24 samples.

Results

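TXNIP, thioredoxin-interacting protein, and 4 related alpha-arrestins, ARRDC1, ARRDC2, ARRDC3 and ARRDC4, were examined in bovine dermal fibroblasts together with LOC100848155, an uncharacterised gene that overlaps TXNIP on the other strand. These 6 genes were picked by symbol out of 27550 rows with a gene symbol (59846 rows in all), and each symbol stood on 1 row. They were brought together after TXNIP and LOC100848155 had been seen among the largest falls at 2 h after LPS, so the changes of the members from 0 h to 2 h, and from 2 h to 8 h, are a description of the genes chosen and are given without a test. Breed differences at 2 h, and the difference of the 2 h change between the breeds, were tested. The fibroblasts, which make the collagen matrix of the dermis, had been cultured from 4 Holstein (dairy) and 4 Angus (beef) heifers. Each culture was sampled at 0 h, before exposure, and at 2 h and 8 h of lipopolysaccharide (LPS) at 100 ng/ml, a component of the outer membrane of Gram-negative bacteria. RNA sequencing thus gave 24 samples in 6 groups of 4, Holstein and Angus at each hour, with the same 8 animals at all hours. All groups held low-passage cells revived from liquid nitrogen, and each sample joined the lysates of duplicate wells of 1 animal. None of the 24 samples was a culture kept for 2 h or 8 h without LPS. The hour in culture and the exposure to LPS therefore cannot be told apart.

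Alpha-arrestins are cytoplasmic adaptors with an arrestin fold, most of which carry PY motifs that bring NEDD4-family ubiquitin ligases to membrane proteins and so promote their removal from the cell surface. TXNIP binds and inhibits thioredoxin, the main cytoplasmic disulfide reductase, and lowers glucose uptake by promoting endocytosis of the glucose transporter GLUT1, which SLC2A1 encodes. Its transcription, like that of ARRDC4, is known to follow glucose supply through the sugar-sensing factors MondoA (MLXIP) and MLX, and TXNIP messenger RNA is short-lived. ARRDC3 is known for its part in the turnover of the beta-2 adrenergic receptor and of integrin beta-4, and ARRDC1 for the budding of small vesicles from the plasma membrane. Less is known of ARRDC2.

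Between 51014538 and 104406293 counts were available per sample, so that 3 counts stood for 0.029 to 0.059 CPM (counts per 1000000 counts of the library). The 10 dermal fibroblast markers looked at were all present in every sample, FAP being the lowest with 30.3 to 106 CPM. Of 6 keratinocyte markers, KRT1 was at 0 in every sample, but KRT5 reached 10.2 CPM and KRT14 2.75 CPM. Reads of the collagen gene COL1A1 were tallied differently in 4 libraries, those of Angus animal 4 and of Holstein animals 2 and 4 before LPS and that of Angus animal 3 at 2 h. One count stood for 66.2 to 67.1 covered bases there and for 111.8 to 119 in the remaining 20. The 4 libraries also stood apart as a whole. In them 96.23 to 96.54% of reads were matched, against 92.88 to 95.25% in the rest. Counts per matched read were 1.562 to 1.712 against 1.5 to 1.542. The reason for this was not tested. TXNIP had 78.6 to 80.9 covered bases per count in these 4 libraries, which was also its range over all 24. The ranges of ARRDC1, ARRDC2, ARRDC3 and ARRDC4 over all 24, these 4 included, were narrow as well. The widest, that of ARRDC4, was 78.3 to 84.8, and 78.3 to 83.0 in the 4 libraries. LOC100848155 varied more, from 576 to 819.9 over all 24 and from 589.6 to 819.9 in the 4. In bulk RNA, fewer cells that make a transcript and less of it per cell cannot be told apart.

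TXNIP lay on chromosome 3 from 21489097 to 21493258 on the plus strand (UMD v3.1), wholly inside LOC100848155, which ran from 21478570 to 21494663 on the minus strand. The 4162 bases that both rows covered held nearly all of the signal of both. The covered bases of the LOC100848155 row differed from those of the TXNIP row by -46 to 262 bases, at most 0.357%, and the highest read depth was the same in both rows in 24 of 24 samples. In 18 samples the difference was no larger than the 101 bases that rounding of the deposited mean coverage allows. The interval without a gene symbol that follows TXNIP (21493259 to 21502095) held 4 to 23 counts, against 582 to 10842 counts in the TXNIP row. LOC100848155 was credited with 61 to 1506 counts from the same stretch. How reads were assigned between overlapping rows is not given in the sources used here, so what sets the share credited to LOC100848155 is not known. The libraries did not mark strand, so reads of TXNIP and of an antisense transcript cannot be told apart, and LOC100848155 is not a second, independent measurement of the response.

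The number of TXNIP counts per LOC100848155 count differed between the breeds. Averaged over the hours, it was 9.19, 7.94, 8.83 and 9.49 in Angus animals 1 to 4 and 7.58, 7.67, 7.65 and 7.62 in Holstein animals 1 to 4. In these means all 4 Angus animals lay above all 4 Holstein animals, and the Holstein means were almost identical to each other. Single samples of the breeds overlapped, with 7.68 to 10.21 in Angus and 7.2 to 8.18 in Holstein. The mean was 8.86 ± 0.67 (SD, n = 4) in Angus and 7.63 ± 0.04 (SD, n = 4) in Holstein, a difference of -1.228 (exact permutation test over animals, two-sided, p = 0.0286, the smallest that 4 against 4 can give). Without the 4 libraries with another COL1A1 counting the difference was -1.072 (exact permutation p = 0.0286). Both tests were chosen after the separation of the animals had been seen, so their p only restates it. Within a breed the ratio moved little with the hour, from 8.59 to 9.04 in the Angus means and from 7.52 to 7.81 in the Holstein means.

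**Figure D1:**
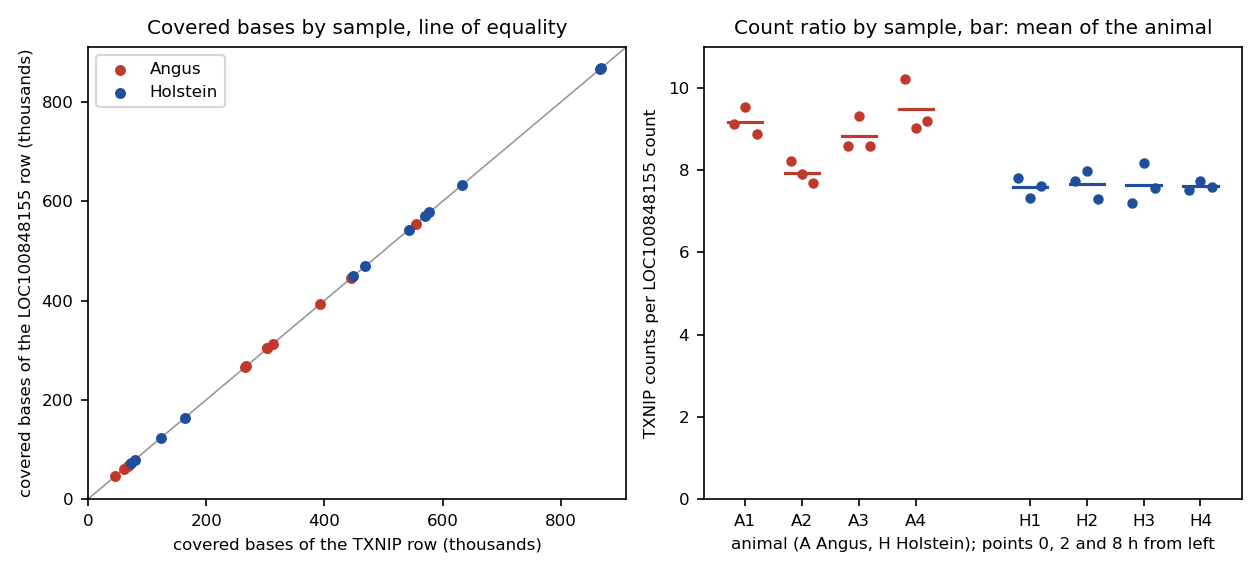
Covered bases of the LOC100848155 row against those of the TXNIP row (axes in units of 1000 bases), 1 point per sample with the line of equality (left), and TXNIP counts per LOC100848155 count in each sample (right), with a bar for the mean of each animal. The points on the left lie on the line, and on the right the 4 Holstein bars lie between 7.58 and 7.67, below all 4 Angus bars.

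The order of the hours was the plainest feature of the members. At 2 h TXNIP, LOC100848155, ARRDC3 and ARRDC4 were lower than at 0 h in 8 of 8 animals, ARRDC2 was higher in 8 of 8, and ARRDC1 lay near its starting level. By the threshold of the comparisons (FDR under 0.05, fold change of at least 2 and average CPM above 1), 5 of the 6 members were past it at 2 h with the breeds combined, 4 lower and 1 higher, where 2.82% of all rows tested were past it in either direction, 0.739% lower and 2.08% higher. In Holstein cultures alone the count was 5 (3.14% of all rows) and in Angus cultures alone 3 (2.98%), ARRDC2 and ARRDC4 having differed by less than 2-fold there (5 were past the FDR limit alone, as 13.8% of all rows were). From 2 h to 8 h, 4 of the 6 members were past the threshold (2.76% of all rows), all of them higher at 8 h. Since the genes were gathered from the 2 h result, these counts describe the choice. The summed level of 5 smooth muscle and pericyte markers, mostly CNN1 and CSPG4, was also highest at 2 h, 606 to 803 CPM in Angus and 642 to 696 in Holstein, against 396 to 553 and 445 to 535 at 0 h, and its part in the 2 h values was not tested.

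**Figure D2:**
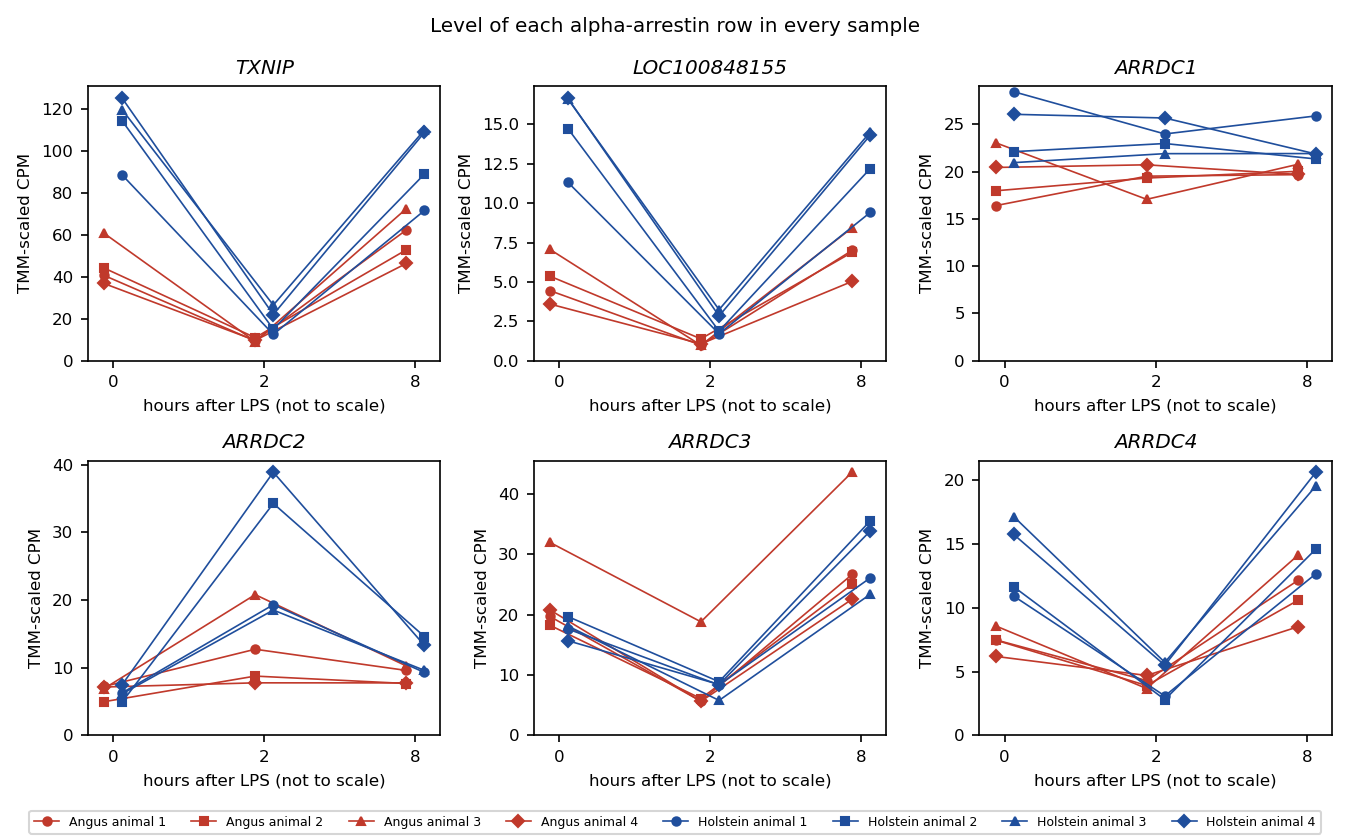
TMM-scaled CPM (vertical axis, from 0) of each gene in every sample at 0, 2 and 8 h (horizontal axis, not to scale), with a line joining the samples of each animal, red for Angus and blue for Holstein. TXNIP, LOC100848155, ARRDC3 and ARRDC4 are lowest at 2 h in each animal, ARRDC2 is highest at 2 h, and ARRDC1 stays between 16.4 and 28.5 CPM.

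TXNIP was the member with the widest range, from 9.18 to 125 TMM-scaled CPM (scaled between libraries by the trimmed mean of M-values), and 24 of 24 samples were above 1 CPM. At 0 h the Holstein cultures of animals 1 to 4 had 88.5, 114, 120 and 125 CPM and the Angus cultures 40.7, 44.2, 60.8 and 36.8 CPM. Every Holstein culture was thus above every Angus culture before LPS. At 2 h the Holstein cultures had 12.6, 15.1, 26.6 and 22.03 CPM and the Angus cultures 9.48, 11.03, 9.18 and 9.71 CPM. Every 0 h culture lay above every 2 h culture, and at 2 h the 4 Angus cultures had come to nearly the same level, 9.85 ± 0.817 (mean ± SD, n = 4). At 8 h the Holstein cultures had 71.6, 89.0, 110 and 109 CPM and the Angus cultures 62.3, 52.9, 72.5 and 46.4 CPM. The breeds overlapped at that hour only through Holstein animal 1 and Angus animal 3.

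With the breeds combined, the log2 fold change of TXNIP at 2 h was -2.45 (standard error 0.309), 5.45-fold lower than at 0 h. Within the breeds it was -2.56 (0.23) for Holstein and -2.20 (0.174) for Angus, and from 2 h to 8 h it was 2.42 (0.251). At 8 h TXNIP was not past the threshold against 0 h (-0.04, 95% interval -0.592 to 0.517, FDR = 0.962). This fit held the hour alone, without breed or animal. With each animal compared with itself the value was 0.06 (FDR = 0.687). That comparison uses the 0 h samples by which the genes were chosen. The combined value hid opposite directions. The log2 change from 0 h to 8 h was 0.62, 0.26, 0.25 and 0.33 in Angus animals 1 to 4, and -0.31, -0.36, -0.12 and -0.20 in Holstein animals 1 to 4. TXNIP was higher at 8 h in 4 of 4 Angus and lower in 4 of 4 Holstein cultures, and these directions also held when counts were scaled to the total or by relative log expression. Scaled to the total, the Holstein changes were smaller in the mean (-0.163) and ran from -0.266 to -0.023, the last being close to no change. Within the breeds the changes were 0.37 (0.2, FDR = 0.42) in Angus and -0.23 (0.168, FDR = 0.434) in Holstein. When each animal was compared with itself (the animal as a block in the model), they were 0.38 (FDR = 0.000167) and -0.24 (FDR = 0.000808), below the 2-fold limit, where 20.7% and 35.2% of all rows passed the FDR limit. The Holstein value did not pass it with the block and without the 4 libraries with another COL1A1 counting (-0.19, FDR = 0.173), of which 2 were Holstein cultures at 0 h, whereas the Angus value did (0.39, FDR = 0.000656).

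Holstein cultures held more TXNIP than Angus cultures at each hour. The log2 difference was 1.31 (0.18, FDR = 5.35e-10), or 2.48-fold, at 0 h. It was 0.95 (0.235, FDR = 0.00119) at 2 h and 0.70 (0.187, FDR = 0.00348) at 8 h, both below the 2-fold limit. Without the 4 libraries with another COL1A1 counting the 0 h difference was 1.10 (FDR = 0.000565). At 2 h it passed 2-fold when Angus animal 2 (1.01, FDR = 0.00362), Holstein animal 1 (1.10, FDR = 1.69e-05) or Holstein animal 2 (1.048, FDR = 0.00108) was left out. In order of level, TXNIP stood highest in Holstein at 0 h (112 ± 16.2 CPM, SD, n = 4), followed by Holstein at 8 h (94.8 ± 18.2), Angus at 8 h (58.5 ± 11.4), Angus at 0 h (45.6 ± 10.5), Holstein at 2 h (19.1 ± 6.41) and Angus at 2 h (9.85 ± 0.817). The first 4 of these overlapped with their neighbours sample by sample, whereas Angus at 0 h, Holstein at 2 h and Angus at 2 h did not overlap with each other. LOC100848155, counted from the same stretch, differed between the breeds by 1.55 (0.228, FDR = 1.05e-08), 1.12 (0.269, FDR = 0.000765) and 0.89 (0.207, FDR = 0.000776) at 0, 2 and 8 h. It was 2-fold or more at 8 h without Holstein animal 1 (1.01, FDR = 5.24e-05) and less than 2-fold at 2 h without Holstein animal 3 (0.95, FDR = 0.00536).

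Among the members, 2 of 6 were past the threshold between the breeds at 0 h, TXNIP and LOC100848155 (3.81% of all rows), both higher in Holstein, where 1.73% of rows were past it in that direction, and 3 of 6 with ARRDC4 by the FDR limit alone (13.8%). At 2 h it was again 2 of 6, LOC100848155 and ARRDC2 (4.45% of all rows, 2.43% higher), and 4 of 6 with TXNIP and ARRDC1 by the FDR limit alone (20.1%). TXNIP and LOC100848155 are counted from the same stretch and are not independent members in these counts. TXNIP itself was below 2-fold at 2 h, when TXNIP counts per LOC100848155 count averaged 8.95 in Angus and 7.81 in Holstein cultures. At 8 h the count past the threshold was 0 of 6 (3.24%), although 3 members, TXNIP, LOC100848155 and ARRDC4, passed the FDR limit alone, as 16.5% of rows did. At 8 h, 4 members had an unadjusted p under 0.05 by the edgeR likelihood-ratio test, as did 6068 of 20679 rows. The count past the threshold was also 0 by the quasi-likelihood F test and by DESeq2. The 6 keratinocyte markers summed to 0.787 to 11.6 CPM in the Holstein cultures and 0.474 to 0.595 CPM in Angus cultures at 0 h, with KRT1 at 0 in every sample. Holstein animal 1 alone accounted for the high values (11.6, 11.3 and 13.8 CPM at 0, 2 and 8 h), and it had the lowest TXNIP of the Holstein cultures at each hour. Without this animal the TXNIP difference at 0 h was 1.41 (FDR = 1.27e-11). The 10 fibroblast markers, mostly collagens, also summed higher in Holstein at 0 h, 73500 to 124000 against 53400 to 69700 CPM. The different counting of COL1A1 enters this sum. Without COL1A1 the other 9 markers summed to 55700 to 75100 CPM in Holstein and 37800 to 54900 CPM in Angus cultures at 0 h, to 60600 to 74400 against 36500 to 51600 CPM at 2 h, and to 54000 to 69700 against 32200 to 50500 CPM at 8 h, with no overlap at any hour. The part of these markers in the breed differences was not tested.

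ARRDC4, like TXNIP a known target of the sugar-sensing factors, lay on chromosome 21 from 8924763 to 8939028 on the minus strand. At 0 h it had 10.9, 11.7, 17.2 and 15.8 CPM in Holstein animals 1 to 4 and 7.50, 7.47, 8.59 and 6.20 CPM in Angus animals 1 to 4, so that the breeds did not overlap. At 2 h the Holstein cultures had 3.096, 2.81, 5.73 and 5.501 CPM and the Angus cultures 4.30, 3.91, 3.68 and 4.70 CPM, and the breeds were mixed. At 8 h the Holstein cultures had 12.7, 14.6, 19.6 and 20.6 CPM and the Angus cultures 12.1, 10.6, 14.1 and 8.51 CPM. Every 2 h culture was below every 0 h and every 8 h culture, and at 8 h the breeds overlapped.

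The log2 change of ARRDC4 at 2 h was -1.34 (0.223) with the breeds combined, -1.70 (0.271) in Holstein and -0.84 (0.178) in Angus. At 8 h ARRDC4 was higher than at 0 h in 8 of 8 animals, by 0.41 (0.232), which did not pass the FDR limit (FDR = 0.275). With the animal as a block it was 0.44 (FDR = 3.61e-08). Within Angus cultures the 8 h difference was 0.62 (0.194, FDR = 0.0405), but the FDR was 0.108 by the quasi-likelihood F test, and within Holstein cultures it was 0.29 (0.209, FDR = 0.428). With the block the Holstein value had FDR = 0.000252, but 0.152 when the 4 libraries were left out as well. Between the breeds ARRDC4 was higher in Holstein by 0.91 (0.19, FDR = 0.000139) at 0 h and by 0.58 (0.214, FDR = 0.0449) at 8 h. At 2 h the difference was 0.05 (0.269, 95% interval -0.482 to 0.572, FDR = 0.927). None of these reached 2-fold, but the 0 h difference did so without Holstein animal 1 (1.01, FDR = 2.58e-05).

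ARRDC3 lay on chromosome 7 from 93240415 to 93253094 on the minus strand. At 0 h it had 17.6, 19.7, 18.1 and 15.7 CPM in the Holstein and 19.7, 18.3, 32.0 and 20.8 CPM in the Angus cultures. At 2 h these were 8.38, 8.91, 5.81 and 8.44 CPM in the Holstein cultures and 5.67, 6.12, 18.8 and 5.65 CPM in Angus. At 8 h they were 26.1, 35.6, 23.4 and 33.9 CPM in the Holstein cultures and 26.7, 25.1, 43.6 and 22.6 CPM in Angus. Angus animal 3 was the highest of all cultures at each hour, and its 2 h library, 1 of the 4 with another COL1A1 counting, was the only 2 h sample to reach the 0 h range. ARRDC3 thus went below its starting level at 2 h and above it at 8 h in each animal. The log2 change was -1.25 (0.24) at 2 h, a description, and 0.55 (0.162, FDR = 0.00904) at 8 h, the latter below 2-fold. Without the 4 libraries the 8 h value was 0.50 and no longer passed the FDR limit (FDR = 0.0964), and with the block as well it was 0.47 (FDR = 7.78e-16). Within the breeds the 8 h change was 0.75 (0.155, FDR = 4.01e-05) among Holstein cultures and 0.39 (0.257, FDR = 0.565, or 0.000274 with the block) in Angus. The breeds did not differ past the FDR limit, with -0.34 (0.188, FDR = 0.233) before LPS and -0.20 (0.407, FDR = 0.773) at 2 h. At 8 h the difference was 0.02 (95% interval -0.439 to 0.475, FDR = 0.972). Without Angus animal 3 the 2 h difference was 0.44 (FDR = 0.0742).

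ARRDC2, on chromosome 7 from 5101424 to 5105930 on the minus strand, was the 1 member that was higher at 2 h. At 0 h it had 6.30, 4.95, 6.15 and 7.51 CPM in the Holstein and 7.24, 4.99, 6.93 and 7.16 CPM in the Angus cultures, which overlapped throughout. At 2 h the Holstein cultures had 19.3, 34.3, 18.5 and 38.9 CPM and the Angus cultures 12.7, 8.78, 20.8 and 7.78 CPM. Holstein animals 2 and 4 stood highest, and among the Angus cultures animal 3 alone lay within the Holstein range. At 8 h the Holstein cultures had 9.31, 14.6, 9.62 and 13.3 CPM and the Angus cultures 9.61, 7.68, 10.3 and 7.77 CPM, all above every 0 h culture. The log2 change at 2 h was 1.66 (0.287) combined, 2.15 (0.264) in Holstein and 0.94 (0.321) in Angus. At 8 h it was 0.69 (0.152, FDR = 0.000196) combined, 0.92 (0.202, FDR = 0.000141) in Holstein and 0.44 (0.189, FDR = 0.231, or 0.00369 with the block) in Angus, each below 2-fold. Without Holstein animal 1 the Holstein value was 1.03 (FDR = 0.000597).

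Before LPS no breed difference in ARRDC2 passed the FDR limit (-0.07, 95% interval -0.454 to 0.314, FDR = 0.861). At 2 h the level was higher in Holstein by 1.14 (0.362, FDR = 0.0142), or 2.21-fold, and at 8 h by 0.41 (0.198, FDR = 0.14). The FDR of the 2 h difference was 0.0571 by the quasi-likelihood F test, and between 0.0501 and 0.0834 when Angus animal 1, 2 or 4 or Holstein animal 2 or 4 was left out. Without Angus animal 3, whose 2 h library was 1 of the 4 with another COL1A1 counting, it was 1.51 (FDR = 6.16e-05).

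ARRDC1, on chromosome 11 from 105541713 to 105549236 on the minus strand, kept to a narrow band at all hours. At 0 h it had 28.5, 22.1, 21.0 and 26.1 CPM in the Holstein and 16.4, 17.97, 23.1 and 20.4 CPM in the Angus cultures. At 2 h it had 23.98, 22.97, 21.9 and 25.7 CPM in the Holstein cultures and 19.5, 19.3, 17.1 and 20.7 CPM in those of Angus, and at 8 h 25.9, 21.3, 21.9 and 21.9 CPM in Holstein animals and 19.7, 20.03, 20.8 and 19.7 CPM in Angus. The Holstein cultures lay above all Angus cultures at 2 h and at 8 h but not at 0 h. The 8 h change was -0.03 (95% interval -0.252 to 0.191, FDR = 0.914), and that at 2 h was -0.03 (0.122). Between the breeds the log2 difference was 0.34 (0.154, FDR = 0.129) before LPS, 0.30 (0.114, FDR = 0.0436) after 2 h and 0.19 (0.106, FDR = 0.222) after 8 h, and the 2 h value no longer passed the FDR limit (0.0711) without Angus animal 3.

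At 8 h against 0 h, 0 of the 6 members were past the threshold with the breeds combined (1.42% of all rows), in Holstein (2.51%) or in Angus (0.863%) by the edgeR likelihood-ratio test, and likewise 0 by the quasi-likelihood F test and DESeq2. By the edgeR likelihood-ratio test, an unadjusted p under 0.05 was reached by 2 members in each of these 3 comparisons. Of all rows, 5026 of 20368, 5080 of 20489 and 2776 of 20617 reached it. By the FDR limit alone, ARRDC2 and ARRDC3 passed with the breeds combined (12.8% of all rows) and among Holstein cultures (14.7%), and ARRDC4 among Angus cultures (3.9%). All 3 of these passed it with the breeds combined when the animal was a block, as 40.7% of all rows did.

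**Figure D3:**
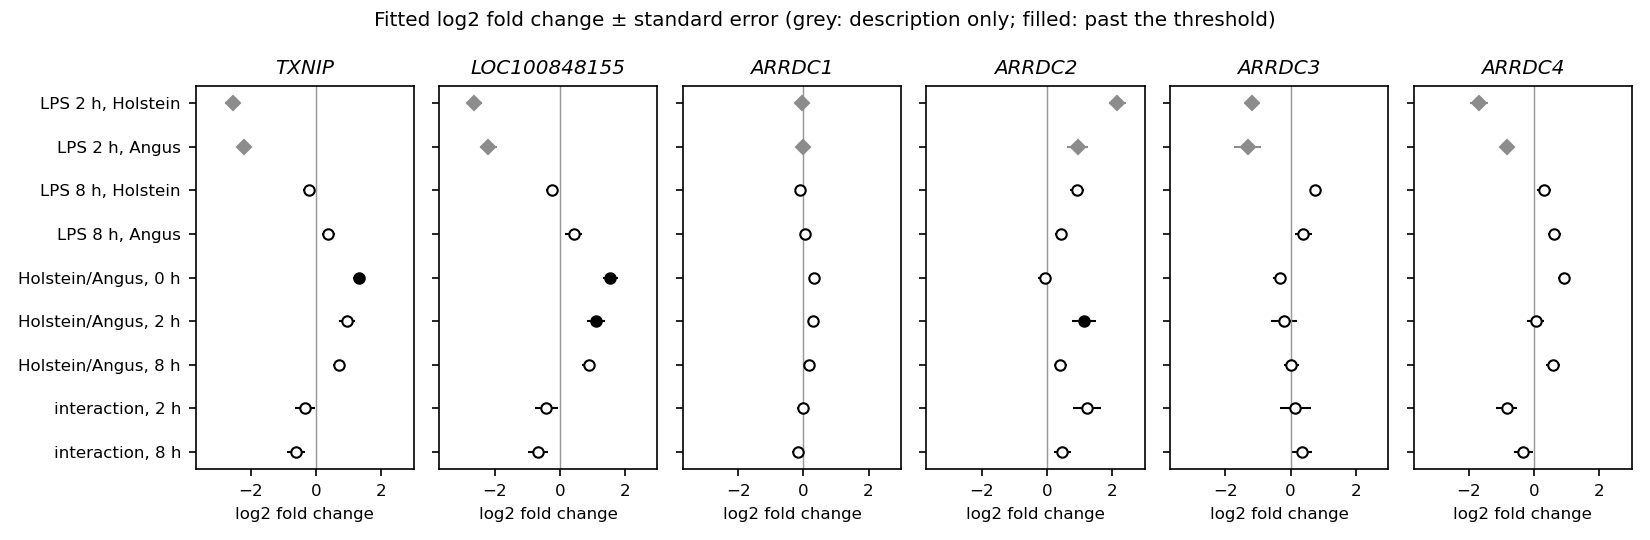
Fitted log2 fold change (horizontal axis) with its standard error for each gene in 9 comparisons (vertical axis), grey diamonds for the 2 h changes that are given as a description, open circles for tested values not past the threshold and filled circles for those past it. The filled circles are TXNIP and LOC100848155 between the breeds at 0 h and LOC100848155 and ARRDC2 between the breeds at 2 h.

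Whether the change from 0 h differed between the breeds was tested as an interaction, the Holstein change minus the Angus change. Without regard to the animal, 0 of 6 members were past the threshold at 2 h (0.278% of all rows) and 0 at 8 h (0.0982%) by the edgeR likelihood-ratio test, the quasi-likelihood F test and DESeq2. By the first of these, 2 members had an unadjusted p under 0.05 at each hour. Of all rows, 885 of 20157 at 2 h and 597 of 20368 at 8 h had such a p. As the hours were samples of the same animals, the fit with the animal as a block is given beside this one, and it changed the result for 4 members. With it, 1 of 6 members was past the threshold at 2 h (0.625% of all rows), ARRDC2, and 2 by the FDR limit alone (4.28%), ARRDC2 and ARRDC4. At 8 h, 0 of 6 were past the threshold with the block (0.491%).

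In ARRDC2, the log2 change at 2 h was 1.62, 2.79, 1.59 and 2.37 in Holstein animals 1 to 4 and 0.82, 0.81, 1.59 and 0.12 in Angus animals 1 to 4, so every Holstein animal exceeded every Angus animal, Holstein animal 3 and Angus animal 3 by very little. The interaction was 1.22 (0.437, FDR = 0.409) without and 1.26 (FDR = 0.00906) with the block, and 1.55 (FDR = 0.0226) without the block and without Angus animal 3. With the block and the quasi-likelihood F test the FDR was 0.0909, and with the block and without the 4 libraries the value was 0.77 (FDR = 0.000135), under 2-fold.

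ARRDC4 showed the reverse order. Its log2 change at 2 h was -1.82, -2.05, -1.58 and -1.52 in the Holstein and -0.80, -0.93, -1.22 and -0.40 in the Angus animals, and no Holstein animal overlapped with an Angus animal. The interaction was -0.85 (0.324, FDR = 0.559) without the block and -0.90 (FDR = 0.000269) with it, 0.027 by the quasi-likelihood F test with the block, and -0.84 (FDR = 0.00157) with the block and without the 4 libraries. At 8 h its change was smaller in every Holstein than in every Angus animal as well, 0.19 to 0.39 against 0.46 to 0.72, but its interaction stayed short of the FDR limit (-0.34, FDR = 1.0, and -0.33, FDR = 0.0709, with the block).

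For TXNIP the interaction at 8 h, where all Angus cultures had gone up and all Holstein cultures down, was -0.61 (0.269, 95% interval -1.138 to -0.084, FDR = 1.0) without the block. It was -0.63 (FDR = 9.69e-07) with the block, with FDR = 0.0303 by the quasi-likelihood F test, and -0.59 (FDR = 0.0189) with the block and without the 4 libraries. With the block, 2.59% of all rows passed the FDR limit at 8 h, and among the members TXNIP and LOC100848155 (-0.68, FDR = 1.06e-05) did, both below 2-fold. At 2 h the TXNIP interaction was -0.34 (95% interval -0.93 to 0.242, FDR = 1.0) and -0.41 (FDR = 0.303) with the block. The interactions of ARRDC1 and ARRDC3, and that of ARRDC2 at 8 h (0.48, FDR = 1.0, and 0.45, FDR = 0.377, with the block), did not pass the FDR limit with or without the block.

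Across the 24 samples, ARRDC4 followed TXNIP closely (Pearson r = 0.941 and Spearman rho = 0.936 over log2 values with 1 CPM added). These points share the 8 animals, the hours and the breeds, and are given as a description. When the mean of each of the 6 groups was taken off, r was 0.878, the highest value among the 12956 gene rows compared with TXNIP (LOC100848155 left out), followed by WDFY1 (0.821), BCAS4 (0.809), SIPA1L1 (0.789) and LOC783718 (0.784). By Spearman correlation ARRDC4 was again the highest (0.884), but FAM84B and LOC100297647 took the places of BCAS4 and SIPA1L1. ARRDC3, also lower at 2 h (r = 0.746 over all samples), had r = 0.085 after the group means were taken off, and ARRDC2 0.057. ARRDC2 and ARRDC3, which went opposite ways at 2 h (r = -0.362), had r = 0.675 with the group means off, with Angus animal 3 at 2 h standing high in both.

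**Figure D4:**
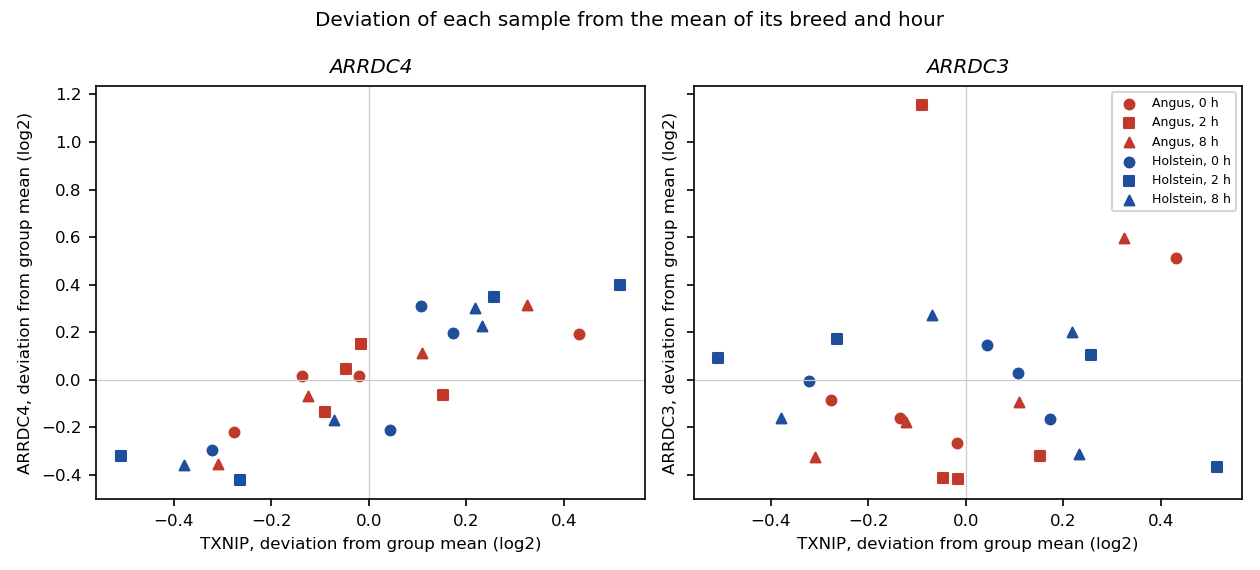
Deviation of each sample from the mean of its breed and hour on the log2 scale, for ARRDC4 (left) and ARRDC3 (right) on the vertical axes against TXNIP on the horizontal axes, 24 samples each. The ARRDC4 points run along a rising line (r = 0.878) and the ARRDC3 points do not (r = 0.085), with Angus animal 3 at 2 h far above the others for ARRDC3.

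Over all samples, the gene rows most like TXNIP by Pearson correlation were LRRC29 (r = 0.965), TTC33 (0.955), MLLT10 (0.954), TIMMDC1 (0.951) and ZNF330 (0.943), and those most opposed were SAMD11 (-0.949), the heat shock co-chaperone DNAJB1 (-0.948) and HMGXB3 (-0.943). These lists depended on the measure. By Spearman correlation TTC33 alone stayed among those most like TXNIP, with ARRDC4, THAP6, ZC3H6 and ZCCHC7. Those most opposed were then HSPA8, ZBTB2 and CBFB. ZNF330 for example had a mean of 25.6 CPM at 0 h, 15.4 at 2 h and 27.6 at 8 h, and DNAJB1 23.9, 52.4 and 23.4 CPM. The rows most like ARRDC2 were ZC3H12A (0.953), which encodes the ribonuclease Regnase-1, the NF-kB inhibitor NFKBIE (0.949) and the interferon regulatory factor IRF1 (0.943). ZC3H12A had 5.57, 35.2 and 14.6 CPM at 0, 2 and 8 h, the same order of hours as ARRDC2. Those most like ARRDC3 were CBR4 (0.91), DDHD1 (0.907) and ZEB2 (0.904), whereas by Spearman correlation DTX3L stood first (0.923). Next to ARRDC4 stood LOC100848155 (0.944) and TXNIP (0.941) themselves, and then POGK (0.926). POGK ran from 32.5 CPM at 0 h to 26.3 at 2 h and 34.5 at 8 h.

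Genes known to work with the alpha-arrestins were counted by the same threshold. Of the sugar-sensing factors, 2 of 3 passed the filter on low counts in the combined comparisons and neither was past the threshold in any comparison. MLXIP changed by 0.10 (0.0788, FDR = 0.417) at 2 h and 0.17 (0.0733, FDR = 0.0995) at 8 h and MLX by -0.17 (0.0993, FDR = 0.256) and -0.01 (0.0854, FDR = 0.968), while MLXIPL (ChREBP) had a group mean of 0.175 to 1.99 CPM. The median of the list was -0.0315 at 2 h and 0.0823 at 8 h, against -0.0039 and -0.0072 over all rows tested. Of the thioredoxin and peroxiredoxin system 11 of 12 genes were tested, and none was past the threshold at 2 h or 8 h by the edgeR likelihood-ratio test, the quasi-likelihood F test or DESeq2, with 3 and 0 at an unadjusted p under 0.05 by the first of these. Of all rows, 6128 of 20157 at 2 h and 5026 of 20368 at 8 h had such a p. The median of these 11 was 0.0586 at 2 h and -0.029 at 8 h. The largest 8 h values were those of sulfiredoxin SRXN1 (-0.18, FDR = 0.564) and the mitochondrial thioredoxin reductase TXNRD2 (-0.17, FDR = 0.429). SRXN1 had been 0.67 higher at 2 h (0.189, FDR = 0.00339), and 0.55 (FDR = 0.0806) without the 4 libraries. The cytoplasmic thioredoxin reductase TXNRD1, named after its values were seen, was 0.91 higher at 2 h (0.14, FDR = 4.62e-09), and 1.08 higher, past 2-fold, without the 4 libraries with another COL1A1 counting.

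SLC2A1, the transporter that TXNIP acts on, was past the threshold, 1 of 7 tested glucose transporters and hexokinases to be so at 2 h and at 8 h with the breeds combined, where 2.08% and 1.07% of all rows were past it and higher. It rose by 1.55 (0.237, FDR = 6.05e-09) at 2 h and 1.84 (0.187, FDR = 1.76e-18) at 8 h, from 15.2 ± 3.19 to 49.1 ± 8.13 and 52.4 ± 13.98 CPM in the Angus cultures, and from 9.90 ± 0.927 to 24.5 ± 6.04 and 36.96 ± 5.25 CPM in those of Holstein (mean ± SD, n = 4). At 2 h its Holstein minus Angus difference was -1.003 (0.2, FDR = 3.67e-05). It was below 2-fold when Angus animal 1 or 4 or Holstein animal 2 or 4 was left out (-0.995 to -0.857), and -0.985 when gene rows alone were fitted. SLC2A1 thus stayed high at 8 h, when TXNIP was back near its 0 h level. Hexokinase HK2 rose by 1.03 (0.179, FDR = 4.63e-07) in Holstein at 8 h, but by less than 2-fold without the 4 libraries (0.88, FDR = 8.51e-06), without Holstein animal 2 (0.95) or without Holstein animal 4 (0.98). The median of the 7 genes was 0.33 at 2 h and 0.596 at 8 h, against -0.0039 and -0.0072 over all rows tested.

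Of the NEDD4-family ubiquitin ligases, 8 of 9 genes were tested at 2 h and 7 at 8 h and none was past the threshold by any of these 3 tests, although NEDD4L was 0.78 higher (0.0983, FDR = 1.28e-12) and SMURF2 0.61 higher (0.159, FDR = 0.00239) at 8 h, below 2-fold. The median of the list was 0.324 at 2 h and 0.00378 at 8 h. Of 8 other arrestins and arrestin-fold proteins 5 were tested and none was past the threshold, with DSCR3 at -0.49 (0.1, FDR = 3.99e-05) and the beta-arrestin ARRB1 at 0.19 (0.38, FDR = 0.826) at 8 h, and with a median of -0.116 at 2 h and -0.0414 at 8 h. ARRDC5, the remaining alpha-arrestin with a row, did not pass the filter in any comparison. Of the FOXO factors and FOXO or glucocorticoid target genes, 12 of 15 were tested at 2 h and 8 h, with a median of -0.359 and -0.218. PDK4, an inhibitor of pyruvate dehydrogenase, fell by 2.19 on the log2 scale (FDR = 0.00047) at 2 h and by 1.28 (FDR = 0.0299) at 8 h, from group means under 2 CPM. It was not past the threshold at 2 h without the 4 libraries (-2.18, FDR = 0.00179, average CPM no longer above 1) and did not pass the filter on low counts without Holstein animal 2. At 8 h its FDR was 0.0604 by the quasi-likelihood F test, 0.0556 with no filter on low counts, and 0.054 to 0.164 when Angus animal 1 or 4 or Holstein animal 2 or 3 was left out. Sestrin SESN3 fell by 1.59 (0.209, FDR = 2.37e-11) at 8 h. At 2 h, FOXO3 (1.06, FDR = 0.000305), PER1 (1.01, FDR = 4e-05) and CCNG2 (1.36, FDR = 4.43e-05) were higher in Holstein, 3 of 11 tested, where 2.43% of all rows were. Without the 4 libraries 6 of the 11 were past the threshold, as were 1289 of 20030 rows in either direction, against 898 of 20184 with all libraries. FOXO3 was below 2-fold without Angus animal 1 (0.91), and PER1 without Angus animal 1 or 4 or Holstein animal 1 or 2 (0.92 to 0.98). CCNG2 also fell in Angus at 2 h (-1.07, FDR = 0.0111), though not by the quasi-likelihood F test (FDR = 0.0505), without Angus animal 1 (FDR = 0.128) or without Angus animal 2 (FDR = 0.0728). It was the 1 gene of the list past the threshold in Angus at 2 h (607 of 20352 rows), against 3 without the 4 libraries (715 of 20525 rows). Of the inflammasome genes, 2 of 5 were tested, and IL18 was higher in Holstein at 0 h (1.10, FDR = 9.59e-06), but by less than 2-fold without the 4 libraries, 3 of which were 0 h samples (0.83, FDR = 0.00218), without Angus animal 4 (0.96) or without Holstein animal 2 (0.97). Their median at 2 h and 8 h was 0.0064 and 0.116.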

How the data were processed

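Polyadenylated RNA of 24 samples was sequenced after TruSeq (unstranded) library preparation. Per the submitters' processing notes and the table headers, CASAVA 1.7 and NextGENe 2.3.4 were used, with alignment to UMD v3.1. The authors deposited raw read counts per row, a row being either a gene from its first to its last base or a stretch between genes. The deposited mean and maximum coverage (signal) of each row was used only to compare overlapping rows and counting. Summed counts were 1.5 to 1.712 times the matched reads, and overlapping rows could share reads. Exons and introns were not told apart.

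Only the samples compared entered a fit with edgeR 4.0.16 (R 4.3.3), as the study's methods state: rows with 1 CPM or more in at least 50% of samples, likelihood-ratio test, Benjamini-Hochberg adjustment over all rows (FDR). TMM scaling was added. Fits of the hours with the breeds combined held the hour alone, so that differences between the breeds enter their standard errors. A row was past the threshold at FDR under 0.05, fold change of at least 2 and average CPM above 1. Values in parentheses after log2 changes are standard errors, and 95% intervals are normal intervals from them. Replicates were separate animals. DESeq2 1.42.0, the quasi-likelihood F test, other scaling and filters, and leaving out animals were alternatives, and the code was tested on simulated data. No pair of samples within a group was a duplicate.

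The animal number in the titles links the hours of 1 animal. Deviations from the group means correlated within an animal, with a mean r of 0.659 (lowest 0.545) between 0 h and 2 h. It was 0.619 (lowest 0.534) between 0 h and 8 h and 0.611 (lowest 0.432) between 2 h and 8 h. Between different animals of a breed the mean r was -0.218, -0.206 and -0.202 for these pairs of hours. Results with the animal as a block stand beside those it changed.

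The members and all gene lists were chosen with earlier results of these data known. Members were always named. From each list the genes past the threshold in a comparison were named, or, with none, the 2 with the largest change at 8 h, and every gene of lists of 4 or fewer. Genes of like pattern were the 5 highest and 3 lowest for TXNIP and the 3 highest for ARRDC2, ARRDC3 and ARRDC4. TXNRD3, SLC2A12, FOXO6 and IRS2 had no row of that name.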

Additional observations from a re-analysis of the deposited data

Results flagged for a closer look

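In 3 of 36 groups of 4 samples (6 genes in 6 groups), 1 sample stood apart from the others by Dixon's ratio at the 95% level, where chance alone gives about 1 in 20 groups. They were ARRDC1 in Holstein animal 1 at 8 h (25.9 CPM), ARRDC2 in Angus animal 2 at 0 h (4.99 CPM, low) and ARRDC3 in Angus animal 3 at 2 h (18.8 CPM), the last in a library with another COL1A1 counting.

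By the interaction term of the fit with the animal as a block, the change from 0 h differed between the breeds past the FDR limit in 4 genes. Of all rows, 4.28% passed this limit at 2 h and 2.59% at 8 h. The Holstein change minus the Angus change on the log2 scale was 1.26 for ARRDC2 (FDR = 0.00906) and -0.895 for ARRDC4 (FDR = 0.000269) at 2 h, and -0.626 for TXNIP (FDR = 9.69e-07) and -0.681 for LOC100848155 (FDR = 1.06e-05) at 8 h. Without the block, and with all animals, none of these passed the FDR limit. With the block and the quasi-likelihood F test ARRDC2 did not pass it (FDR = 0.0909), whereas ARRDC4, TXNIP and LOC100848155 did. At 8 h the change of TXNIP and of LOC100848155 was up in 4 of 4 Angus and down in 4 of 4 Holstein animals, with a difference between the breed means of -0.613 and -0.675. LOC100848155 is counted from the TXNIP stretch and adds no separate evidence.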

How the results depend on the processing

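Of the alternatives run on the counts of members past the threshold, 191 left the count within 1.5 times its value and 15 moved it. By the FDR limit alone, the count was 5 in Angus at 2 h, 2 at 8 h with the breeds combined, 2 among Holstein and 1 among Angus cultures at 8 h, and 4 and 3 between the breeds at 2 h and 8 h. The quasi-likelihood F test gave 1 between the breeds at 2 h. Leaving out each animal gave 0 to 1 in Holstein at 8 h, 1 to 3 between the breeds at 2 h, 0 to 1 at 8 h, and 0 to 1 for the interaction at 2 h. The replicate block, by animal, put 1 member past the threshold for the interaction at 2 h and 0 for that at 8 h. No paired analysis was possible between breeds because equal numbers name different animals. Of the tested single values of the members, 37 changed sign, none of them past the FDR limit. Another 19 came past the threshold, or past the FDR limit where it was used alone, and 7 no longer did. Changes at 2 h and from 2 h to 8 h counted as moved only beyond 1 SD of the changes of the animals, as 1 did. The remaining 1232 were the same by these rules, and smaller changes of sign or side in those descriptive values are among them. With the breeds combined at 8 h, TXNIP was 0.0712 in 1 fit of all 24 samples, 0.133 without the 4 libraries, 0.0625 with the replicate block, 0.0613 with the block and the quasi-likelihood F test and 0.155 with the block and without the 4 libraries, and LOC100848155 was 0.102, 0.135, 0.096, 0.0898 and 0.169. ARRDC1 was 0.0185 without the 4 libraries and 0.053 with the block as well. Leaving out each animal, the 8 h values ran from -0.0882 to 0.0267 for TXNIP, from -0.0814 to 0.0232 for LOC100848155, from -0.0575 to 0.0162 for ARRDC1, and from -0.00684 to 0.127 for ARRDC1 in Angus. Between the breeds the ranges were -0.186 to 0.0257 for ARRDC2 at 0 h, -0.379 to 0.442 for ARRDC3 and -0.121 to 0.203 for ARRDC4 at 2 h, and -0.0973 to 0.259 for ARRDC3 at 8 h. For the interaction at 2 h they were -0.175 to 0.0595 for ARRDC1 and -0.000402 to 0.569 for ARRDC3. Without the 4 libraries, ARRDC3 was 0.44 and ARRDC4 -0.0027 between the breeds at 2 h, and with a filter of 10 counts ARRDC3 was -0.0026 at 8 h. The cause was not tested. In the count ratio of TXNIP and LOC100848155, all Angus means lay above all Holstein means. Leaving out any 1 animal could therefore not change its direction. The exact permutation p was bound to be 0.0571, the smallest possible with 3 against 4. The blocks combined with another choice, the tests of the count ratio and the marker sums without COL1A1 were chosen after seeing the data. Counting cannot separate strands, exons or introns, and LOC100848155 at 2 h rested on as few as 61 counts.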
